A study of Mus musculus with 4 samples.

Results

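Spots of the arcuate nucleus were chosen by their own counts of 4 marker genes, so those counts describe the spots and test nothing. In each of 3 coronal sections, the 25 spots with the highest score were taken from those with at least 500 UMIs (unique molecular identifiers, 1 per counted probe pair) and 250 genes. The score is the mean of ln(1 + UMIs per 10000 UMIs of the spot). Its genes were Agrp, Pomc (the precursor of the melanocortins), Ghrh and Kiss1 (kisspeptin), but Kiss1 is not among the 19465 features counted, so the order rests on 3 of the 4 genes. The choice gave 75 spots of 10109 in the 3 sections, or of 13452 in all 4 sections of the series.

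The arcuate nucleus lies at the base of the hypothalamus on both sides of the third ventricle, above the median eminence, where peptides and blood-borne hormones are exchanged. It holds AgRP neurons, which make agouti-related peptide, Npy and GABA and promote feeding, and POMC neurons, whose melanocortin peptides restrain it, and both respond to leptin. It also holds the neurons that release growth hormone-releasing hormone (Ghrh), dopamine neurons that restrain prolactin, and KNDy neurons (kisspeptin, neurokinin B, dynorphin) that drive the gonadotropin axis. Tanycytes, the glia that line the floor of the ventricle, reach through it to the pituitary portal vessels.

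The brains came from male C57BL/6J wild-type offspring at postnatal day 21. Their dams ate 2 mg/kg folic acid (MF, labelled median folate) or 20 mg/kg folic acid (HF, high folate) from 2 weeks before mating through pregnancy and lactation. All sections were formalin-fixed and paraffin-embedded and were read with the Visium probe set for the mouse transcriptome, whose spots each cover a small region with more than 1 cell. MF replicate 1, MF replicate 2 and HF replicate 1 were used. Nothing in the labels says that the animals came from separate litters, so p-values concern these sections and not litters. The tests share their estimate of spread among genes, so a p-value or SE does not rest on the gene's own spread between sections alone.

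The 3 sections held 3598, 3314 and 3197 kept spots and between 34982061 and 90096877 UMIs. The arcuate nucleus spots held 779389, 491124 and 285746 UMIs in MF replicate 1, MF replicate 2 and HF replicate 1, with medians of 28531, 21523 and 9678 UMIs per spot against 23493, 12045 and 9265 in the other spots. All values below are therefore UMI counts per 1000000 UMIs (CPM) of the summed spots, in the order MF replicate 1, MF replicate 2 and HF replicate 1. Fewer cells of a type and less RNA per cell cannot be told apart in such sums.

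No gap in the score marked the edge of the chosen set. The last spot taken scored 1.41, 1.47 and 1.31 in the 3 sections and the first spot left out 1.32, 1.38 and 1.28, while the median spot scored 0. HF replicate 2, which the choice leaves out, had no comparable spots: its highest score was 0.392. The 3 used sections and this one also differed elsewhere: Oxt (oxytocin) summed to 63, 174 and 42 UMIs in the former and to 27105 in HF replicate 2. Over that whole section only 15 UMIs of Agrp, 31 of Pomc and 56 of Ghrh were counted, with at most 2 in any spot.

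Position was not used by the choice, and nearly all chosen spots formed 1 patch per section. The largest group of spots linked within 200 µm held 22, 25 and 25 of the 25 spots, and it measured 750, 1050 and 1000 µm across and 260, 346 and 346 µm in height, at the lower edge of the tissue on the array. In HF replicate 2 the 25 highest scores fell into 21 separate groups. Moran's I, a deposited score of how far like values cluster in space, was 0.48, 0.54 and 0.61 for Agrp, 0.51, 0.51 and 0.57 for Pomc and 0.35, 0.41 and 0.34 for Ghrh over whole sections.

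**Figure D1:**
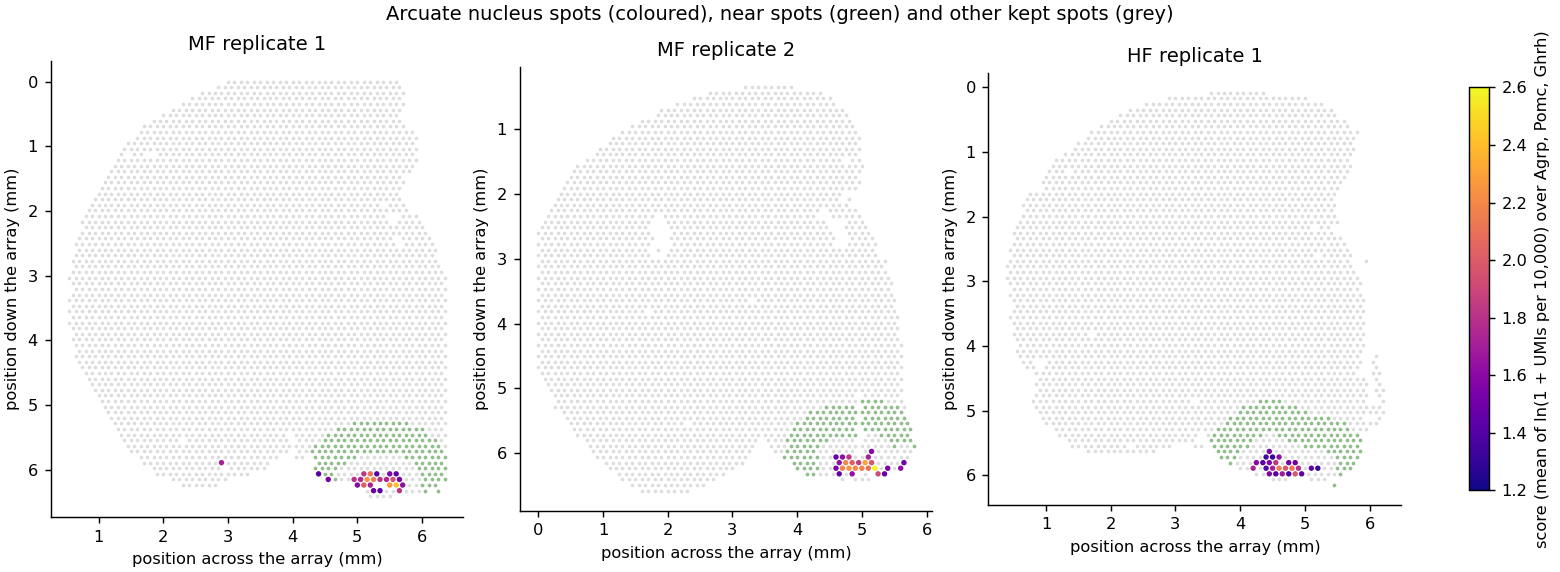
Positions of kept spots across and down the array (both axes in mm) in the 3 sections, with the 25 arcuate nucleus spots coloured by score, near spots in green and other spots in grey. The coloured spots form 1 patch at the lower edge of the tissue, of 22, 25 and 25 spots, and 1 coloured spot of MF replicate 1 lies about 2 mm away from it.

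A spot of MF replicate 1 goes against the name given to the set. It lay 2066 µm from the patch and held 412 UMIs of Pomc, 47.2% of the Pomc UMIs of its 25 spots, but 0 of Agrp and 0 of Ghrh. It held 7 UMIs of Gh, the growth hormone of the anterior pituitary, and a spot that touched it held 127 of Pomc, 86 of Gh and 23 of Prl (prolactin). Gh summed to 515 UMIs in this section and to 0, 2 and 0 in MF replicate 2, HF replicate 1 and HF replicate 2. Without this spot Pomc stood at 609 CPM in the arcuate nucleus spots of MF replicate 1 instead of 1119. The other 2 spots outside the patch held 11 and 13 UMIs of Agrp and lay 400 and 557 µm from it.

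The marker genes filled the set to different extents. Agrp (ENSMUSG00000005705, chromosome 8 of GRCm38, 105566698 to 105637393) stood at 1196, 1150 and 1526 CPM against 6.63, 8.42 and 9.68 in the other spots of the same sections. The 25 spots held 61.2%, 61.5% and 56.5% of all Agrp UMIs of a section. Pomc (ENSMUSG00000020660, chromosome 12, 3954951 to 3960642) stood at 1119, 729 and 546 CPM against 13.5, 8.85 and 5.62. Ghrh (ENSMUSG00000027643, chromosome 2, 157329497 to 157347506) stood at 387, 369 and 161 CPM against 5.45, 7.39 and 4.15, and its 25 spots held only 38.3%, 36.9% and 24.2% of its UMIs, so much of the Ghrh signal lay outside the set. These 3 differences were fixed by the choice.

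Each marker was also high in spots chosen by the other markers. Spots chosen by the other markers alone held 976, 915 and 940 CPM of Agrp, which is 112, 77.6 and 59.8 times the level elsewhere. The same held for Pomc, with 29.3, 65.1 and 77.7 times, and for Ghrh, with 42.2, 34.6 and 20.4 times. Between 17 and 22 of the 25 spots were shared with the full choice. The set was defined with earlier results of these data known, so these values describe it and test nothing.

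Spots of the patch lay on both sides of the midline (13 and 9, 13 and 12, and 16 and 9 of the connected spots), and the peptides differed in their distance from it. The midline was placed, after the data were seen, at the mean position of Rax UMIs (Rax, a homeobox factor of tanycytes) within 400 µm of the patch. Agrp was the most counted of the 3 markers in 13, 12 and 18 of the 25 spots, Pomc in 8, 10 and 4, and Ghrh in 4, 3 and 3. Over the connected spots, Agrp-led spots lay a median of 104, 145 and 166 µm from the midline, Pomc-led spots 254, 300 and 300 µm and Ghrh-led spots 300, 395 and 459 µm. The order Agrp, Pomc, Ghrh from medial to lateral was the same in all 3 sections. Weighted by UMIs, Npy lay at 152, 135 and 148 µm, close to Agrp at 142, 135 and 136 µm. Gal (galanin, a peptide that GHRH neurons also make) lay at 222, 266 and 226 µm, near Ghrh at 235, 257 and 261 µm. These distances are descriptions of a few spots each, and no test was made of them.

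Counts of genes known from the same neurons went together in some pairs and not in others. Across the 25 spots of a section the Spearman correlation of Agrp with Npy was 0.91, 0.89 and 0.83. It was 0.82, 0.45 and 0.27 for Ghrh with Gal and 0.23, 0.77 and 0.23 for Pomc with Cartpt. For Ghrh with Th it was 0.61, 0.22 and 0.025, and for Tac2 with Pdyn, both of KNDy neurons, it was −0.036, 0.015 and 0.044. In MF replicate 1 the 25 spots included the isolated spot, with 412 UMIs of Pomc and 0 of Cartpt. The spots of a section share a library and differ in depth, so these correlations are descriptions.

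The first comparison asked which genes not used by the score set the arcuate nucleus spots apart from the rest of the section. UMIs were summed over the 25 spots and over all other kept spots of a section, and edgeR's quasi-likelihood test compared these sums, with section as a block. Calls needed an adjusted p-value below 0.05 (Benjamini-Hochberg) and a change of at least 2-fold. The spots were chosen on these same sections, so the calls describe which genes went with the score genes. Of 10564 genes tested, 572 were called higher in arcuate nucleus spots (5.41%) and 814 lower (7.71%), and the median log2 fold change of all genes was 0.02. With library size in place of TMM scaling that median was 0.17 and the calls were 776 higher and 642 lower. The second comparison used near spots instead, the 147, 136 and 161 spots that lay 300 to 800 µm from the patch, in the hypothalamus and ventral forebrain around it. It called 230 of 10585 genes higher (2.17%) and 134 lower (1.27%), with a median of 0.01. Most of a section is cortex, hippocampus and thalamus, so the second comparison is the narrower one. DESeq2 called 562 and 794 genes in the first comparison but only 122 and 62 in the second.

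Most tested genes of AgRP neurons were called higher than in all other spots. Of 12 tested, 9 were called higher than in all other spots and 6 higher than in near spots, none was called lower at the 2-fold limit, and the list had median log2 fold changes of 2.72 and 1.39. Npy (ENSMUSG00000029819, chromosome 6, 49822710 to 49829507), the partner peptide of Agrp, stood at 2466, 2075 and 2229 CPM against 209, 181 and 179 in the other spots and 145, 137 and 166 in near spots. These sums of the arcuate nucleus spots lay above those of the other and near spots in every section. The log2 fold changes were 3.43 ± 0.06 (SE) and 3.88 ± 0.09, with adjusted p = 1.95e-27 and 2.70e-37. In single spots Npy had a median of 1080, 1059 and 1422 CPM, and 17, 15 and 18 of the 25 spots exceeded the highest near spot. Single spots overlapped: the lowest arcuate nucleus spots held 125, 138 and 117 CPM and the highest near spots 793, 935 and 838. An other spot of MF replicate 1 far from the patch held 3462 CPM.

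The homeobox factor Otp, needed for AgRP neurons to form, and the ghrelin receptor Ghsr followed. Otp stood at 240, 271 and 220 CPM against 49.1, 54.0 and 59.1 in near spots. Ghsr stood at 32.1, 24.4 and 35.0 CPM against 4.4, 2.27 and 2.91 in near spots. The log2 fold changes over near spots were 2.15 ± 0.12 for Otp and 3.10 ± 0.37 for Ghsr. Npy2r, the receptor through which Npy restrains its own release, and the serine protease inhibitor Serpina3n were also called against both sets, at 2.04 ± 0.13 and 2.95 ± 0.16 over near spots. Lepr, the leptin receptor, Bsx, a homeobox factor of AgRP neurons, and Igsf1 were called against all other spots alone. Gad2, the GABA-synthesizing enzyme of neurons throughout the forebrain, was called in neither at 2-fold, at 307, 393 and 399 CPM against 252, 259 and 256 in all other spots and 456, 534 and 506 in near spots, below which it lay in every section (−0.51 ± 0.09, adjusted p = 2.09e-05).

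**Figure D2:**
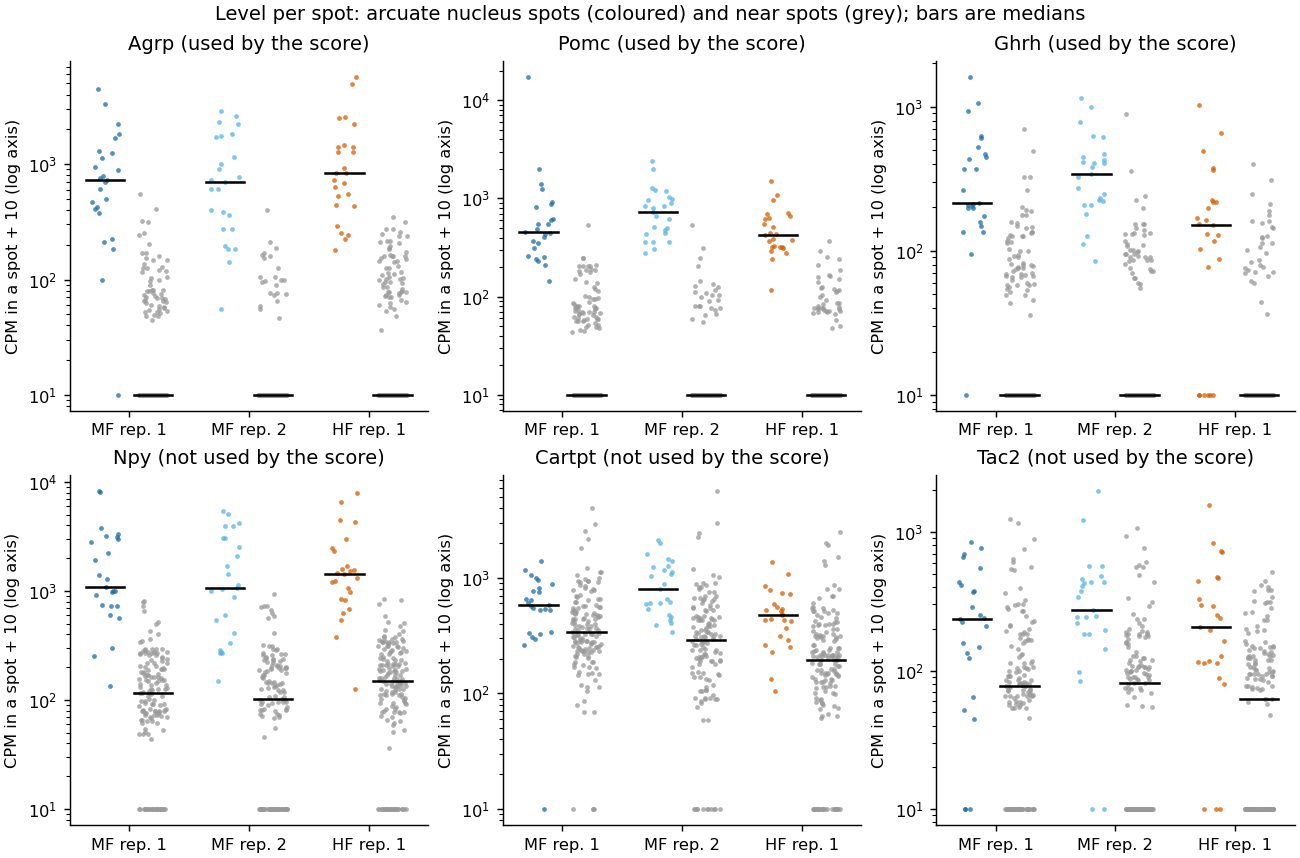
CPM plus 10 of 6 genes in single spots (log axis) for the 25 arcuate nucleus spots (coloured) and the near spots (grey) of each section, with bars at the medians. Agrp, Pomc and Ghrh chose the spots, whereas Npy, Cartpt and Tac2 had no part in it, and of these Npy is the one whose medians of 1080, 1059 and 1422 CPM lie above every near spot of their section.

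Genes of POMC neurons moved in both directions. Of 11 tested against all other spots, 6 were called higher and 2 lower, and of 10 tested against near spots 3 were higher and 1 lower. Tbx3, a T-box factor that keeps the identity of arcuate neurons, stood at 68.0, 63.1 and 49.0 CPM against 9.90, 5.12 and 5.81 in near spots. No near value approached an arcuate nucleus value, and the log2 fold change was 3.0 ± 0.26. Mc3r, a melanocortin receptor, and Anxa2 were the other members called higher than in near spots, at 1.69 ± 0.32 and 1.55 ± 0.20. Cartpt, the precursor of the satiety peptide CART, stood at 639, 888 and 553 CPM against 81.2, 72.5 and 63.7 in all other spots but against 450, 391 and 273 in near spots, some of which held more of it than any arcuate nucleus spot. Its log2 fold change over near spots, 0.83 ± 0.09, stayed under the 2-fold limit, and it passed with 1.07 without MF replicate 1. Htr2c, the serotonin receptor on POMC neurons, was called lower in both comparisons, with 28.2, 32.6 and 38.5 CPM against 54.6, 88.2 and 109 in near spots.

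Tac2, which encodes neurokinin B of the KNDy neurons, was called higher in both comparisons. It stood at 322, 356 and 339 CPM against 90.6, 85.7 and 89.9 in all other spots and 130, 107 and 82.8 in near spots, with log2 fold changes of 1.78 ± 0.09 and 1.57 ± 0.11. Pdyn, which encodes the dynorphin of the same neurons, was called lower than in near spots (−1.55 ± 0.27, adjusted p = 2.63e-05), and not without MF replicate 1 (−0.87). The estrogen receptor Esr1 (148, 122 and 91.0 CPM against 34.8, 26.7 and 21.8 in near spots) and the nuclear receptor Nr5a2 were called in both. Of the whole list, 4 of 8 tested were higher than in all other spots and 3 of 10 higher than in near spots.

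Genes of the GHRH and dopamine neurons gave fewer calls against near spots than against all other spots. Against all other spots 5 of 11 were called higher and 2 lower, but against near spots 1 of 11 was called, Ghr, the growth hormone receptor (119, 151 and 108 CPM against 30.1, 32.4 and 23.7, log2 fold change 2.07 ± 0.16). Gal stood at 226, 232 and 119 CPM against 224, 206 and 127 in near spots, a log2 difference of 0.01 ± 0.11. Th, tyrosine hydroxylase of dopamine synthesis, stood at 82.1, 44.8 and 52.5 CPM against 49.8, 59.7 and 33.4, so its ranges overlapped (0.33 ± 0.19, adjusted p = 0.287). The dopamine transporter Slc6a3 fell under the limit on low levels, with 8, 4 and 4 UMIs.

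Of the transcription factors of the tuberal hypothalamus, 10 of 16 were called higher than in all other spots and 1 lower, with a median log2 fold change of 2.10. Against near spots 6 of 16 were higher and 1 lower. Six6 stood at 42.3, 28.5 and 31.5 CPM against 0.817, 0.978 and 0.634 in all other spots and 8.43, 2.84 and 5.81 in near spots. Nkx2-1, which specifies the ventral hypothalamus, stood at 60.3, 73.3 and 66.5 CPM against 6.66, 6.84 and 6.25 in all other spots, and Isl1, needed for POMC neurons, at 65.4, 75.3 and 94.5 against 6.45, 6.73 and 7.95. Neither was called against near spots. Hmx3 was called higher than in all other spots and lower than in near spots (−1.35 ± 0.26, not called by DESeq2), with 16.7, 16.3 and 24.5 CPM in arcuate nucleus spots and 41.4, 53.5 and 39.7 in near spots.

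Receptors for hormones and feeding peptides were called higher for 11 of 25 genes against all other spots and for 8 of 26 against near spots, with 2 and 3 lower. Besides those above, the receptor for thyrotropin, Tshr, was called higher in both comparisons, and the amylin receptor subunit Calcr (112, 149 and 154 CPM against 10.1, 15 and 14.1) and the GLP-1 receptor Glp1r (19.2, 32.6 and 21.0 against 1.71, 2.65 and 2.54) against all other spots alone. Cnr1, the cannabinoid receptor, was lower in both comparisons, with log2 fold changes of −1.2 ± 0.12 and −1.08 ± 0.13, the second of which was −0.996 without MF replicate 2, just under 2-fold. The signalling genes below the leptin and insulin receptors differed less. Of 15 tested, 4 were higher than in all other spots and 2 higher than in near spots, and the median log2 fold changes were 0.06 and 0.17. Stat3, which the leptin receptor activates, stood at 126, 173 and 157 CPM against 57.7, 59.4 and 55.5 in all other spots (1.21 ± 0.12). Socs3, its feedback inhibitor, stood at 6.42, 18.3 and 38.5 CPM against 3.95, 3.55 and 4.32, and was called higher in both comparisons although its sections spread widely. Foxo1 and Stat5b were the others called against all other spots, at 1.12 and 1.07, and Foxo1 also against near spots, at 1.15. Foxo1 fell to 0.90 and 0.93 without MF replicate 1, and Stat5b to 0.97 without HF replicate 1, below the 2-fold limit.

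Imprinted genes of the hypothalamus were called higher than in all other spots for 12 of 21 and lower for none, at a median log2 fold change of 1.24. Against near spots 2 of 21 were higher, Plagl1 and Asb4. Plagl1 stood at 332, 336 and 378 CPM against 120, 118 and 104 in near spots (1.54 ± 0.10). Asb4 stood at 280, 336 and 336 CPM against 152, 176 and 115 (1.02 ± 0.11), and at 0.86 without HF replicate 1, under 2-fold. Dlk1, a paternally expressed Notch ligand relative, and Magel2, of the Prader-Willi region, were called against all other spots alone, at 3.28 ± 0.08 and 3.16 ± 0.14.

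Peptide processing and granin genes were higher than in all other spots for 7 of 19 and lower for 1, Pcsk2, a convertase that cuts Pomc, which stood at 236, 214 and 231 CPM against 488, 453 and 517. Against near spots 1 was called, Chga (chromogranin A), at 1068, 845 and 1886 CPM against 418, 433 and 453 (1.42 ± 0.10).

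Folate and one-carbon genes, which the diet bears on, differed little in place. Against all other spots 1 of 19 was called higher and 1 lower, beside 5.41% and 7.71% of all genes, and against near spots 0 of 18 were called by edgeR. Mthfd2, a mitochondrial folate enzyme, stood at 28.2, 26.5 and 24.5 CPM against 12.1, 11.9 and 11.7 (1.03 ± 0.26, and 0.98 without MF replicate 1). Mat2b, a subunit of methionine adenosyltransferase, stood at 94.9, 95.7 and 91.0 CPM against 188, 178 and 167. Of the immediate early genes 9 of 16 were lower than in all other spots and none of 14 was called against near spots by edgeR. Arc stood at 15.4, 18.3 and 10.5 CPM against 51.5, 47.1 and 105 in all other spots.

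**Figure D3:**
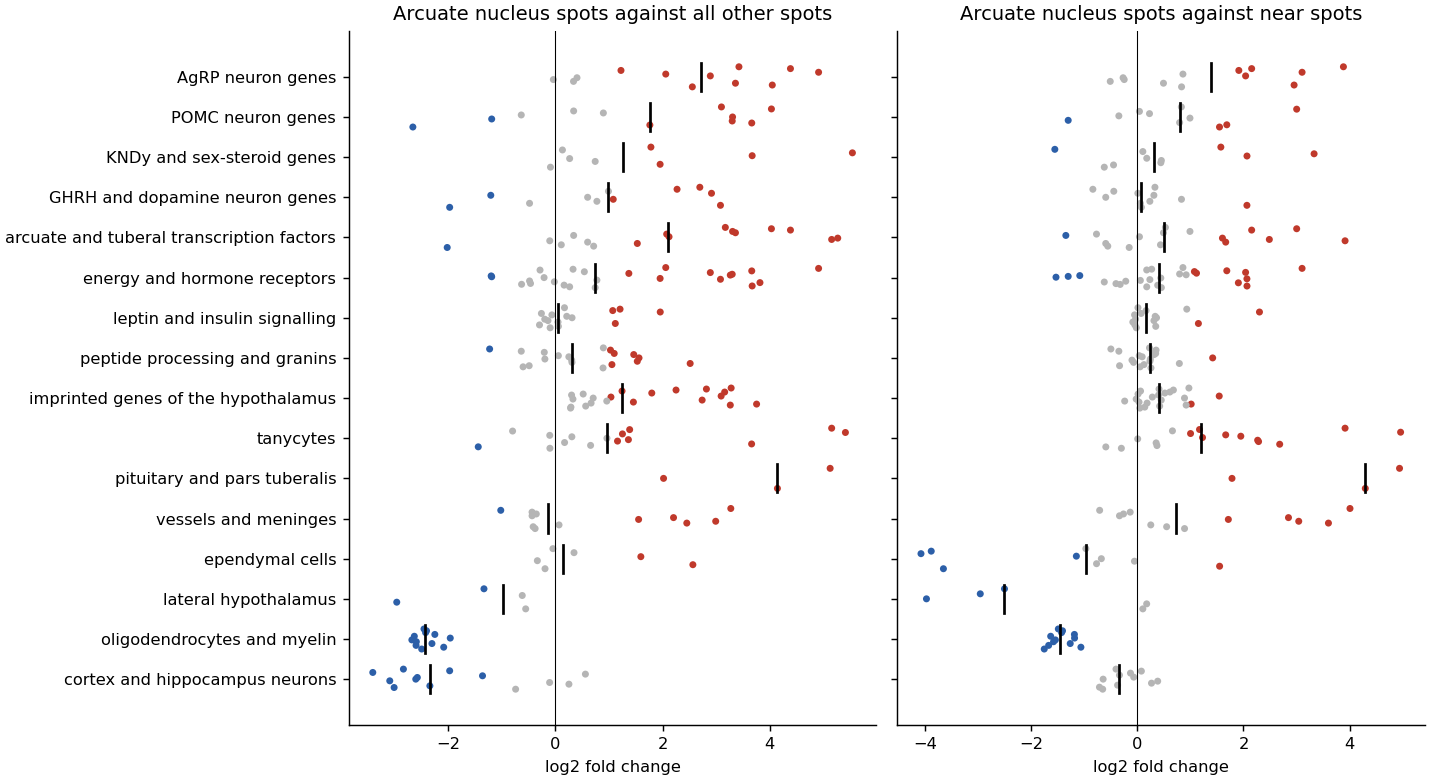
Log2 fold change of each tested gene of 16 lists, arcuate nucleus spots against all other spots (left) and against near spots (right), with genes called higher in red, lower in blue and not called in grey, and a bar at each list's median. The medians of AgRP neuron genes lie at 2.72 and 1.39 and those of myelin genes at −2.44 and −1.46.

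The spots also held RNA of cells beside the neurons. Of the tanycyte genes, 7 of 15 were called higher than in all other spots and 1 lower, and 10 of 16 were higher than in near spots with none lower. The listed genes summed to between 819 and 920 CPM in arcuate nucleus spots and to between 324 and 409 in near spots. Rax stood at 47.5, 42.8 and 31.5 CPM against 3.30, 1.71 and 2.42 in near spots. Fndc3c1 was the tanycyte gene with the largest change over near spots, at 37.2, 32.6 and 94.5 CPM against 2.20, 1.14 and 0.969. Dio2, the enzyme that activates thyroid hormone, and Scn7a were also higher than in near spots, at 1.95 ± 0.27 and 2.68 ± 0.22.

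Some markers of the pituitary stalk and of the surface were higher in the patch, and they were uneven between sections. Cga, the shared subunit of thyrotropin and the gonadotropins, stood at 101.4, 69.2 and 262 CPM against 2.20, 0.569 and 11.1 in near spots (4.94 ± 0.25). In MF replicate 1 a single spot held 77.2% of its 79 UMIs, and without its highest spot in each section it stood at 24.5, 56.1 and 143 CPM. All 3 tested genes of the pituitary list were called higher in both comparisons, Cga, Gata2 and Cyp2f2, although DESeq2 did not call Gata2 against near spots. Prl and Lhb were at 0 UMIs in the connected spots of all 3 sections, Gh at 1, 0 and 0, and Tshb at 8, 4 and 6. Of the vessel and meninges genes 5 of 12 were higher in each comparison, 1 (Cldn5 of endothelium) was lower than in all other spots at −1.02, and at −0.93 and −0.94, under 2-fold, without MF replicate 2 or HF replicate 1. The list's median log2 fold changes were −0.14 and 0.72. Those higher included Plvap of fenestrated vessels (19.2, 30.5 and 56 CPM against 1.10, 1.14 and 3.88 in near spots) and Col1a1 (101.4, 122 and 294 against 16.9, 21.6 and 27.1). Their part in the results above was not tested.

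Myelin was low in the patch. All 12 oligodendrocyte and myelin genes were called lower in both comparisons, by medians of −2.44 and −1.46 on the log2 scale. Mbp, myelin basic protein, stood at 2068, 2103 and 1211 CPM against 8962, 9728 and 7958 in all other spots and 4362, 4679 and 5725 in near spots. Of the cortex and hippocampus genes 9 of 13 were lower than in all other spots, such as the glutamate transporter Slc17a7 (334, 257 and 227 CPM against 1925, 1775 and 1723), and none of 11 was called against near spots by edgeR.

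Genes of neighbouring nuclei differed in both directions from near spots. Pmch, the melanin-concentrating hormone precursor of the lateral hypothalamus, stood at 504, 430 and 129 CPM against 3521, 2334 and 2387 in near spots (−2.96 ± 0.12). Hcrt (orexin) and Npvf of the same list were lower as well, at −2.50 ± 0.22 and −3.97 ± 0.49, though DESeq2 did not call Hcrt. Hdc, histidine decarboxylase of tuberomammillary neurons, stood at 8.98, 8.14 and 14.0 CPM against 96.8, 132 and 156. Ppp1r17 of the dorsomedial nucleus stood at 26.9, 32.6 and 35.0 CPM against 107, 101.4 and 39.7. Of the ependymal genes 4 of 9 were lower than in near spots, Tmem212 and Ccdc153 most. Nr5a1, which defines the ventromedial nucleus, was under the limit on low levels, with 11, 2 and 2 UMIs in arcuate nucleus spots, and its 14.1, 4.07 and 7.0 CPM were not below the 13.9, 2.84 and 1.45 CPM of near spots.

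The change with distance was read in rings around the connected spots. Npy stood at 2614, 2075 and 2229 CPM in the patch, at 535, 463 and 573 in the ring of spots that touched it and at 138, 141 and 154 between 400 and 800 µm. Rax was highest in the touching ring, at 94.1, 57.6 and 72.1 CPM against 49.9, 42.8 and 31.5 in the patch. Cartpt and Gal did not fall evenly: Gal stood at 243, 232 and 119 CPM in the patch and at 237, 191 and 107 between 400 and 800 µm. Pmch rose from 506, 430 and 129 CPM to 3909, 2488 and 2562 over the same distance.

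**Figure D4:**
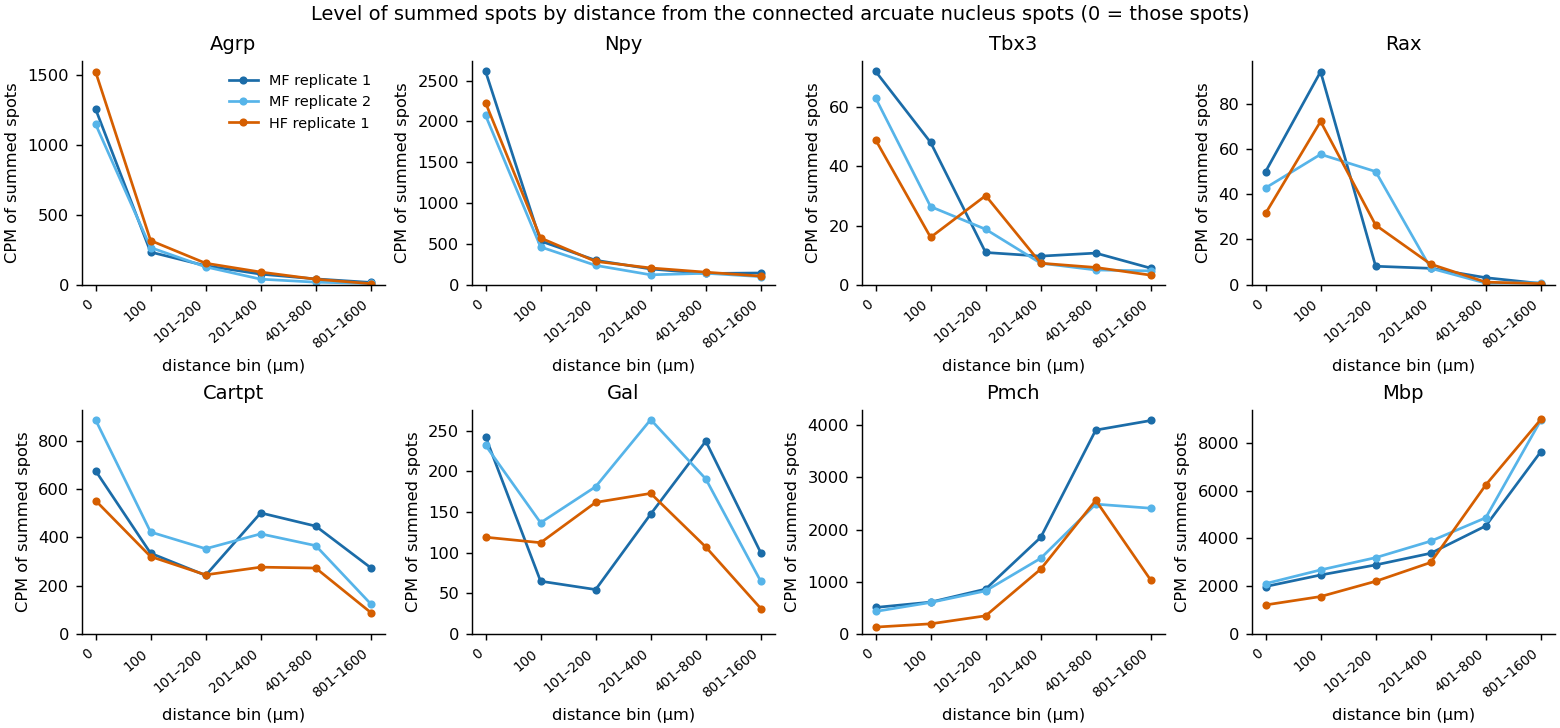
CPM of summed spots for 8 genes by distance from the connected arcuate nucleus spots in µm (0 stands for those spots, 100 for the ring that touches them), 1 line a section. Agrp, which chose the spots, and Npy drop between the patch and the first ring, Rax peaks in that ring at 94.1, 57.6 and 72.1 CPM, and Mbp rises up to 1600 µm in all 3 sections.

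The remaining lists differed in how many calls they gave. Of the other hypothalamic peptides 5 of 14 were higher and 4 lower than in all other spots, and 2 of 15 higher and 8 lower than in near spots. Against near spots the paraventricular and supraoptic list had 3 of 6 higher and 2 lower, the premammillary and tuberomammillary list 2 of 4 lower and the dorsomedial list 4 of 7 lower. The ventromedial list had 1 of 6 higher and 1 lower, the astrocyte list 0 of 12, the microglia list 1 of 9 higher, the choroid plexus list 0 of 3, and the thalamus and striatum lists 1 of 8 lower each. These counts stand beside 2.17% and 1.27% of all genes, and several lists share genes.

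By size of change, the 10 genes with the largest rise over all other spots at 20 CPM or more in every section were Krt90, Fndc3c1, Six6, Ces1d, Rax, Cga, Ghsr, Irs4, Otp and Serpina3n, with log2 fold changes from 5.63 down to 4.05. Irs4, an insulin receptor substrate, had the highest counts of these, at 523, 533 and 570 CPM against 18.5, 23.0 and 20.9. Against near spots the 10 were Fndc3c1, Cga, Ces1d, Epcam, Abca8a, Rax, Npy, Crabp1, Apoc3 and Krt90, from 4.96 down to 3.22. Crabp1, a retinoic acid binding protein, stood at 84.7, 79.4 and 101.5 CPM against 8.06, 2.84 and 12.1.

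The 5 genes furthest below all other spots were Gm5741, Gpr151, Robo3, Gm11549 and Ttr. Gm5741 had 0 UMIs in all 75 spots against 24.6, 22.4 and 32.3 CPM elsewhere. With a floor of 3 UMIs over the 75 spots in place of 0, it was at least 13.7-fold below the mean of the other spots. Gpr151 and Robo3, known from the habenula, had 1 UMI and 3 UMIs in MF replicate 1 and 0 in the other sections. Ttr, the transthyretin of the choroid plexus, stood at 259, 169 and 122 CPM against 2405, 2269 and 3377. Against near spots the 5 were Tmem114, Tmem212, Ccdc153, Hdc and Npw.

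Over all kept spots, the genes whose level followed the score most closely were Baiap3, Irs4, Dlk1, Hap1, Gpx3, Resp18, Arhgap36, Nnat, AW551984 and Zcchc12, of 11309 compared, with mean Spearman correlations of 0.37 to 0.33 over the 3 sections. The spots of a section share a library and depth differs among them, so the correlations are a description. Resp18, a protein of secretory granules, stood at 1819, 1702 and 1582 CPM against 274, 287 and 250 in all other spots.

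Oxt and Avp, the oxytocin and vasopressin precursors, rested on few spots. Oxt stood at 35.9, 179 and 0 CPM, and a single spot held 71.4% and 73.9% of its 28 and 88 UMIs in the MF sections. Avp stood at 70.6, 6.11 and 14.0 CPM. Both were called higher in both comparisons by edgeR, but Avp was not by DESeq2 against all other spots (log2 fold change 1.96, adjusted p = 0.213).

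The last comparison asked whether the arcuate nucleus spots of the HF section differed from those of the MF sections. It sets 1 section against 2, which leaves 1 residual degree of freedom and assumes that the lone HF section varies like the MF pair. A gene was called at an adjusted p-value below 0.05 and at least a 1.2-fold change, and edgeR called 19 of 10679 genes higher (0.178%) and 16 lower (0.15%). DESeq2 called 0 genes higher, with 19 at an unadjusted p below 0.05, and 2 lower, Pmch among them, with 23.

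Npy, Tac2 and Cartpt gave no call, and the score genes Agrp, Pomc and Ghrh were barred from calls in advance. Npy stood at 2466 and 2075 CPM in the MF sections and at 2229 in HF replicate 1, between them, a log2 difference of −0.05 ± 0.12. Tac2 stood at 322 and 356 against 339 CPM, and Cartpt at 639 and 888 against 553 (−0.46 ± 0.16, adjusted p = 0.304). None of 12 AgRP neuron genes, 10 POMC neuron genes, 16 transcription factors, 26 receptors, 15 leptin and insulin signalling genes or 19 folate genes was called by edgeR, beside 0.178% and 0.15% of all genes, so a count of 0 is near the background and shows no stability. Gal was called lower, at 226 and 232 against 119 CPM (−0.96 ± 0.25, adjusted p = 0.0457), a call that held with connected spots only and at a 1.5-fold limit and was lost in the other 7 refits, with log2 differences of −0.51 to −1.26 and adjusted p = 0.0543 upward. Agrp, Pomc and Ghrh chose the spots, and their HF values of 1526, 546 and 161 CPM stand beside MF values of 1196 and 1150, 1119 and 729, and 387 and 369. Without the isolated spot the Pomc of MF replicate 1 is 609 instead of 1119.

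The genes called higher in HF replicate 1 included markers of the surface and of the pituitary stalk. Col1a1 stood at 101.4 and 122 against 294 CPM (1.4 ± 0.22), Dcn at 56.5 and 75.3 against 171, Cga at 101.4 and 69.2 against 262 (1.55 ± 0.24) and Epcam at 32.1 and 32.6 against 126. With 15 spots per section the log2 differences of Col1a1, Dcn and Cga were 0.67, 0.29 and 0.39, none of them called, and with 40 spots that of Cga was 0.61, not called. A single spot held 47.6% of the Col1a1 UMIs of HF replicate 1, and without each section's highest spot Col1a1 stood at 76.1 and 106 against 165 CPM. The 10 with the largest change were Ttc23, Lypd2, Anxa1, Cyp2f2, Htra3, Epcam, Eng, Cga, Col1a1 and Dcn. Ttc23 held 0 and 1 against 10 UMIs and Lypd2 3 and 3 against 15. Both were under 10 CPM in the MF sections and passed the limit on low levels only through HF replicate 1. Cyp2f2 held 10 and 4 against 15 UMIs and lost its call with connected spots only. Summed over the lists, vessel and meninges genes stood at 652, 776 and 1319 CPM and pituitary genes at 186, 116 and 441. Chga was higher too, at 1068 and 845 against 1886 CPM (0.95 ± 0.13), but the difference was 0.59 with 15 spots and 0.42 with 40 spots, and neither these nor DESeq2 gave a call.

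The genes called lower included myelin genes and peptides of other nuclei. Mbp stood at 2068 and 2103 against 1211 CPM (−0.80 ± 0.13), Mal at 242 and 244 against 105 and Mobp at 652 and 631 against 325. Summed over the list, myelin genes stood at 6399, 5870 and 3405 CPM. Pmch stood at 504 and 430 against 129 CPM (−1.88 ± 0.22), and the lateral hypothalamus list that holds it summed to 593, 538 and 189 CPM. Gfap, of astrocytes, stood at 394 and 238 against 157 CPM (−1.07 ± 0.22). With connected spots only its log2 difference was −0.79 and with 40 spots −0.37, and neither these nor DESeq2 gave a call. Oxt and Zdhhc24 were at 0 UMIs in HF replicate 1, where a floor of 3 UMIs is 10.5 CPM. Zdhhc24 was at least 2.90-fold below the MF mean. Oxt came mostly from 1 spot in each MF section, and without these it stood at 10.6 and 47.2 CPM, so no fold is given. Hapln4, Fa2h, Cbln1 and Atg13 were also among the largest falls. Hapln4 and Fa2h held 4 UMIs each in HF replicate 1. The calls of Fa2h and Atg13 were lost by library size alone, without the filter and with connected spots only.

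The part of the marker sums above in the diet calls was not tested. With spots thinned to 5000 UMIs edgeR called 1 gene higher (Chga) and 3 lower (Mapk8ip3 and Mbp among them), and the term for the difference relative to the other spots of each section called 4 higher (Epcam, Apod, Chga and Igfbp5) and 1 lower (Oxt). Some differences that lost their call by thinning kept about the same size, such as Anxa1 at 2.35, Epcam at 2.18 and Mal at −1.41. Ttc23 did so too, at 5.02, but rests on 0, 1 and 10 UMIs before thinning. Others became smaller, such as Pmch from −1.88 to −1.27, Col1a1 from 1.4 to 0.96, Cbln1 from −1.74 to −1.19 and Fa2h from −2.22 to −1.68. Others became larger, such as Eng from 1.62 to 2.29 and Atg13 from −1.41 to −2.26. Why these calls were lost was not tested. The genes called in these refits are named because each count is small, after their values were seen.

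**Figure D5:**
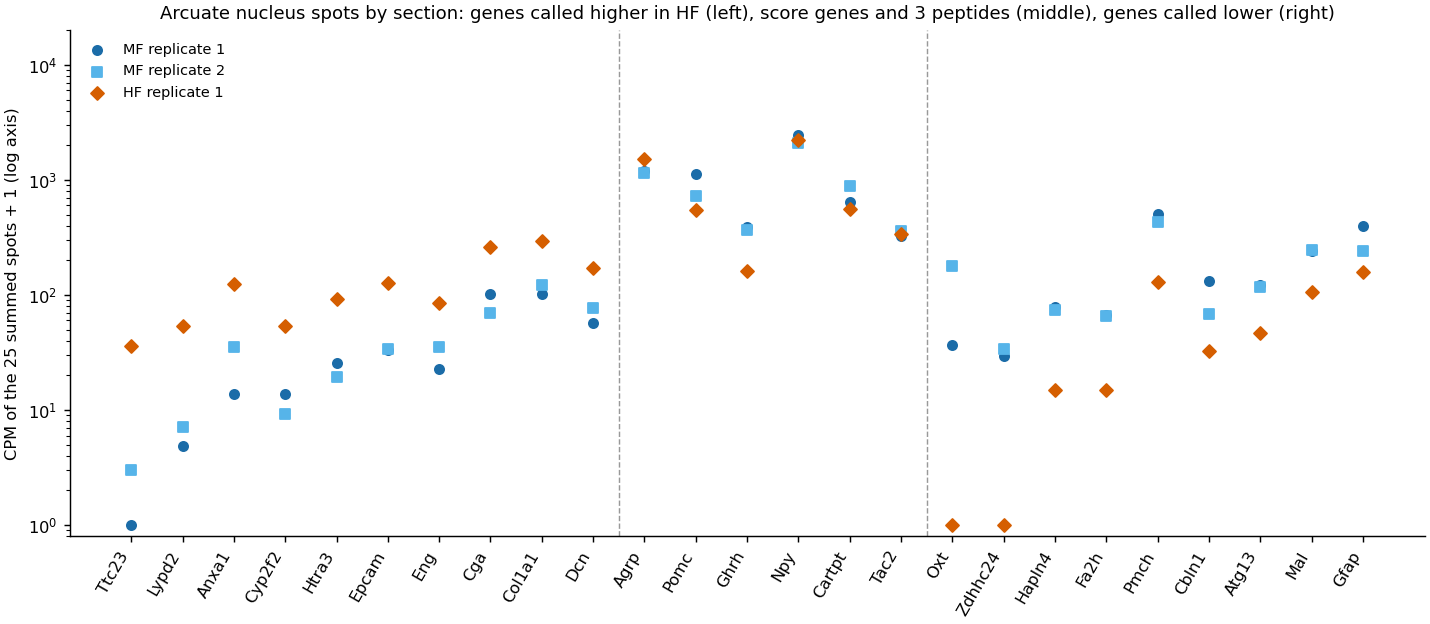
CPM plus 1 (log axis) of the 25 summed arcuate nucleus spots of each section for the 10 genes called higher in HF with the largest change, for the 3 score genes with Npy, Cartpt and Tac2, and for 9 called lower. HF replicate 1 lies outside both MF sections for the called genes and between them for Npy and Tac2.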

How the data were processed

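Whole sections of 2 MF and 2 HF offspring were read by Visium for fixed tissue, and 3 of them were used. Raw UMI counts were deposited by the authors, who used Space Ranger 2.0.0 and mm10 (GRCm38), as whole numbers per feature and spot without normalization, with array positions. Deposited Moran's I, a score per feature, was printed as given. Kept spots had at least 500 UMIs and 250 genes, and adjacent spots are 100 µm apart.

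UMIs were summed per section over the 25 arcuate nucleus spots, over all other spots and over near spots. Features with a mean of at least 10 CPM over the sums entered edgeR 4.0.16 in R 4.3.3 (quasi-likelihood test, TMM scaling), with section as a block for the spot comparisons, and p-values were adjusted by the Benjamini-Hochberg method over all tested features. Standard errors come from the quasi-likelihood F. The score genes entered the fit and got no p-value. The limit on low levels used the mean of all sums compared, so a gene could pass it through the higher side alone.

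Members and gene lists were chosen with earlier results of these data known, and no list or spot set is independent of them. Genes were named as score genes, as examples of a list, or as the 10 largest rises and 5 largest falls in each spot comparison (20 CPM in every section on the higher side, same direction in all) and up to 10 in each direction between diets. Lists are described by counts beside those of all genes, with no set test. Of 337 list genes, 333 are features. Alternatives were DESeq2 1.42.0, library size alone, no filter, 15 or 40 spots, connected spots only, spots thinned to 5000 UMIs, other fold limits, wider near spots, no block and sections left out. The tests were tried on simulated data with known changes. Gene positions come from GENCODE vM21. Results of 1 gene are not reported here. The text gives no sequences.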

Additional observations from a re-analysis of the deposited data

Results flagged for a closer look

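Signals outside the compared sums are given because they exceed the limit of 3 UMIs that a count of 0 allows. In MF replicate 1, 515 UMIs of Gh were counted in 247 spots, with at most 86 in a spot, and that spot touched the isolated arcuate nucleus spot with 412 UMIs of Pomc; the other sections held 0, 2 and 0. In HF replicate 2, which was not used, 15 UMIs of Agrp, 31 of Pomc and 56 of Ghrh were counted over 3343 spots. In that section Oxt summed to 27105 UMIs, against 63, 174 and 42 in the 3 sections used.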

How the results depend on the processing

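The direction and call of the spot comparisons held under most alternatives, with counts for higher and lower calls as follows. Against all other spots, a 1.2-fold limit gave 2127 and 2427, and leaving out a section gave 545 to 622 and 800 to 906. Against near spots, DESeq2 gave 122 and 62, thinned spots 87 and 77, a 1.2-fold limit 609 and 730, and leaving out a section 179 to 224 and 104 to 169. Without MF replicate 1 the near comparison shared 164 of its 230 higher and 93 of its 134 lower genes with the full one. With connected spots only, which leaves out the Pomc spot beside Gh, 585 and 853 genes were called against all other spots and 232 and 141 against near spots, of which 555, 806, 220 and 126 were shared. The diet calls were less stable: DESeq2 gave 0 and 2, 15 spots 3 and 3, 40 spots 6 higher, thinned spots 1 and 3, connected spots 10 lower, and the term relative to other spots 4 and 1. The causes were not tested. Leaving out an MF section leaves 1 section against 1 with no residual degrees of freedom, so no such fit was made.

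Without the section as a replicate block, 558 and 799 genes were called against all other spots and 179 and 128 against near spots. No paired analysis of diet was possible because the groups compared share fewer than 2 replicate numbers.

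Genes without a call turned direction in some refits. On the log2 scale against near spots, Gal stood at −0.039 without the filter, at −0.027 with 40 spots and at −0.062 to 0.044 with a section left out, and Th at −0.082 to 0.66 with a section left out. Between diets Npy stood at 0.19 in thinned spots and 0.097 relative to other spots, and Tac2 at 0.010 by library size and 0.18 with 15 spots. Depth limits genes of few UMIs most: the arcuate nucleus sums of HF replicate 1 held 285746 UMIs, so 3 UMIs correspond to 10.5 CPM.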
